A study of Rattus norvegicus with 4 samples.

Results

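The 8 genes described here encode the interleukin-1 (IL-1) cytokines and the proteins that make, sense or block them. They were chosen by name: the ligand genes Il1a, Il1b and Il18, the antagonist gene Il1rn, the inflammasome genes Nlrp3 and Casp1, and the receptor genes Il1r1 and Il1rap. Each had 1 probe with a single gene symbol on the array, and all 8 were among the 18166 genes with such a probe. A filter kept genes that on at least 1 array were no lower than 5.83, the median of the whole table, and all 8 were among the 11790 genes that passed it.

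IL-1α and IL-1β bind the same receptor, IL1R1, which signals only after the accessory protein IL1RAP joins it, and the antagonist encoded by Il1rn occupies that receptor without signalling. IL-1β and IL-18 are made as inactive precursors that caspase-1, the product of Casp1, cuts. Caspase-1 is itself activated on inflammasomes, protein assemblies for which NLRP3 is a sensor. In the brain, microglia are a main source of IL-1, and astrocytes carry its receptor and answer it with chemokines and adhesion molecules.

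The cultures were primary astrocytes, glial cells that support neurons, grown from the cerebral cortex of rat pups (Sprague-Dawley, 1 day of age). All 4 were kept in serum-free MEM for 2 days to deplete microglia and meningeal cells, and all were transfected with an siRNA. With control siRNA there were an untreated culture, a culture with interferon-γ (IFN-γ, a cytokine of activated lymphocytes) and a culture with IFN-γ and a compound the labels call GW, and with an siRNA against SHP there was 1 culture with IFN-γ and GW. Treatment lasted 3 h. Each condition had 1 single-colour array, so there is no standard deviation, interval or p-value, and condition, culture and array cannot be told apart.

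The array medians ran from 5.79 to 5.87 log2, and the 6 pairs of arrays correlated at 0.986 to 0.993 over 29489 probes. Nr0b2, which encodes small heterodimer partner, stood at 5.33, 5.14 and 5.20 log2 in the cultures with control siRNA and at 3.45 with SHP siRNA, all below 5.83. The IFN-γ receptor genes were well above that median in the untreated culture, Ifngr1 at 9.83 and Ifngr2 at 8.81. Of 12 astrocyte markers 10 were measured and 9 passed the filter. Gfap, the glial filament gene, was between 12.03 and 12.11 log2 in all 4 arrays. Sox9 was close to 5.83, between 5.92 and 6.18, and Gjb6 was below it on every array. Of 20 microglia markers 17 were measured, and all 17 reached 5.83 in all 4 arrays, so that signal of that cell type remained after the serum-free step. Meningeal markers passed the filter in 7 of 10, with Col3a1 between 9.19 and 9.90 log2, whereas Dcn, Lum and Slc6a13 were below 5.83 on every array. Neuron markers passed in 6 of 10, with Stmn2, the highest of them, between 11.68 and 12.04. Rbfox3 was close to 5.83, between 5.98 and 6.31, and Tubb3, Snap25, Syt1 and Nefl were below it on every array.

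Il1a, Il1b and Nlrp3 had the largest ranges of the 8 genes over the arrays, at 2.83, 1.94 and 2.26 log2. In all 3 the array with IFN-γ alone was the highest, and the array with SHP siRNA, IFN-γ and GW was above the one with control siRNA, IFN-γ and GW. Il1rap had the same order of arrays as Il1a and Nlrp3, over a range of only 0.29 log2. Il1rn and Il1r1 were also highest with IFN-γ alone. For Il1a, Il1b and Nlrp3, as the genes with the largest ranges, the 250 bases before a listed start are given here. They are from RefSeq, build GRCr8, read 5′ to 3′ on the gene's strand. The windows are chr3:136990018-136990267 (minus strand), chr3:137036582-137036831 (minus strand) and chr10:44827848-44828097 (plus strand), in the order of the lines. The annotated Nlrp3 gene begins at base 44826299, so its window lies inside the gene. The Il1a gene reaches base 136990236, so most of its window, with the AP-1 match, lies inside the gene too. Of these windows only that of Il1b lies outside its gene. Whether these starts are used in the cultures was not tested. Capitals mark the AP-1 match in Il1a, described after them.
Il1a: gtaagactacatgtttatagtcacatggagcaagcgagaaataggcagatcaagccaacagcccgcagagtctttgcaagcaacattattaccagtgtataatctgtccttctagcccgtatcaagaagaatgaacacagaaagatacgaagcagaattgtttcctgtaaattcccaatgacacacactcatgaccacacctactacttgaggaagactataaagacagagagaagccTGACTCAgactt
Il1b: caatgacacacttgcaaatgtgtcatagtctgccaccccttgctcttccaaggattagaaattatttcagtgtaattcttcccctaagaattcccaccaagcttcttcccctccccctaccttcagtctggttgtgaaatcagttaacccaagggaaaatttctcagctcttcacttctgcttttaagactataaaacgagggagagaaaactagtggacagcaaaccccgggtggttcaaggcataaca
Nlrp3: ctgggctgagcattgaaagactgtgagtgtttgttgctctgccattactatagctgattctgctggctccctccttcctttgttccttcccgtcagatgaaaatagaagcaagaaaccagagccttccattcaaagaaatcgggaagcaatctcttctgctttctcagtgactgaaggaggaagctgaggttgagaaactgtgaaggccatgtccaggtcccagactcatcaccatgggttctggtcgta

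Motifs of 2 kinds were searched on both strands in windows from 250 bases before to 50 after the listed start. The windows of Casp1, Il1rn and Il1r1 also lay inside the annotated genes, and those of Il1rap in part. The AP-1 sequence TGANTCA occurred in 2 of the 8 genes, Il1a at 12 bases before the listed start and Il18 within the transcribed part. It occurred in 7.33% of all 33469 windows of the table. The κB consensus, the site of NF-κB, occurred in Il1r1 and Il1rap and in 7.51% of all windows. The members were counted as genes and the shares as windows, and Il1rap had 2 overlapping windows with the same match. The Il1b and Nlrp3 windows held neither motif, so neither was shared by the windows of Il1a, Il1b and Nlrp3. The motifs did not overlap in any window of the 8 genes. Il1a and Il1b are neighbours on the chromosome, with no other gene of the RefSeq table lying between them.

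**Figure D1:**
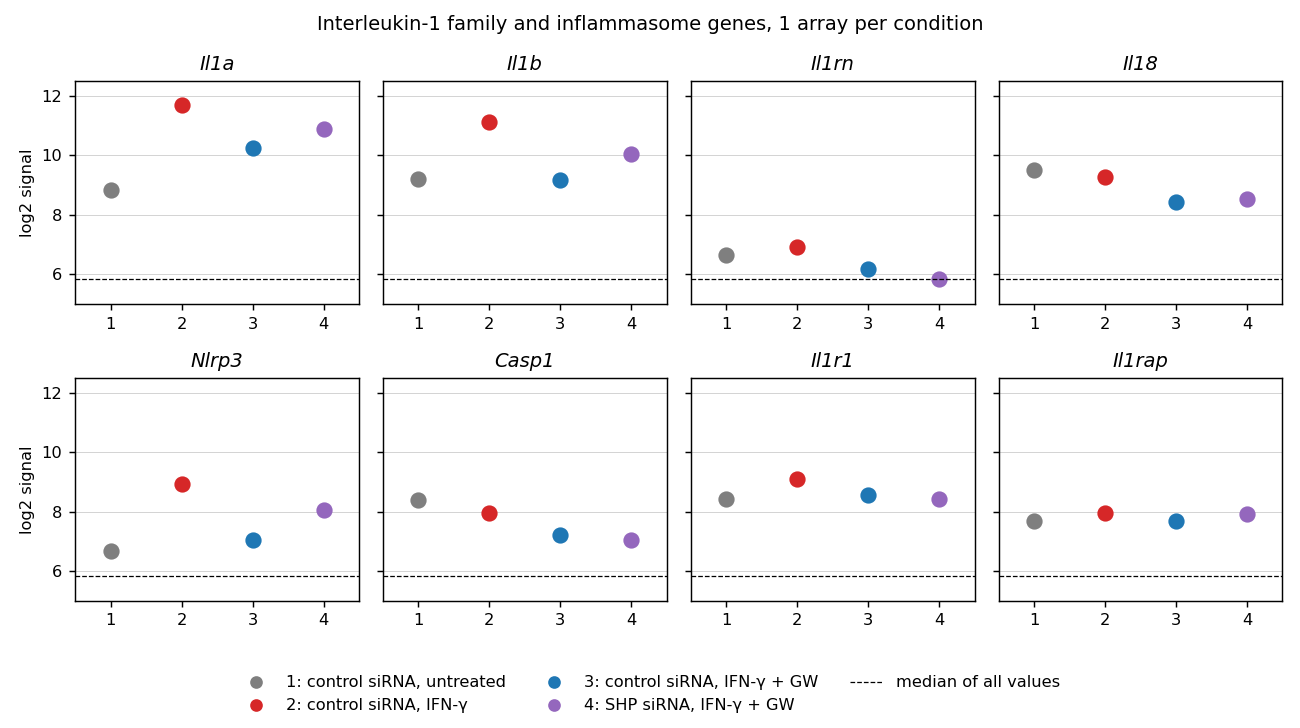
Log2 signal (vertical axis) of each of the 8 genes in the 4 arrays, 1 point per array, with the table median of 5.83 as a dashed line. Il1a, Il1b, Nlrp3, Il1rn, Il1r1 and Il1rap are highest with IFN-γ alone, whereas Il18 and Casp1 are highest in the untreated culture.

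The first comparison asks how the genes stood with and without IFN-γ in cells with control siRNA. The ligand genes Il1a and Il1b and the sensor gene Nlrp3 were higher with IFN-γ, while Casp1 and Il18 were slightly lower and the receptor genes somewhat higher. At least 2-fold higher were 3 of the 8 genes, against 1.61% of the 11790 genes, and 0 of 8 were at least 2-fold lower, against 0.288%. The median log2 difference of the 8 was 0.48, beside -0.04 over all genes.

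Il1a, which encodes a cytokine that is active without caspase-1 processing, had log2 values of 8.85 untreated, 11.68 with IFN-γ, 10.25 with IFN-γ and GW, and 10.9 with SHP siRNA, IFN-γ and GW. The untreated array was the lowest by more than 1 log2 unit and the IFN-γ array the highest. The difference with IFN-γ was 2.83 log2, or 7.1-fold, and only 11 of the 11790 genes had a higher one.

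Il1b, whose product needs cutting before it can signal, had log2 values of 9.20, 11.12, 9.18 and 10.06 in the same order of arrays. The untreated array and the array with IFN-γ and GW were almost level. The IFN-γ difference was 1.92 log2, or 3.78-fold, with 60 genes higher.

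Nlrp3, the sensor gene whose transcription is a priming step for this inflammasome, had log2 values of 6.67, 8.93, 7.05 and 8.04. Its order of arrays was that of Il1a. With IFN-γ it was 4.78-fold higher, a difference of 2.26 log2, with 39 genes higher.

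Casp1 had log2 values of 8.40 untreated, 7.95 with IFN-γ, 7.20 with IFN-γ and GW and 7.06 with SHP siRNA, IFN-γ and GW. Its untreated array was the highest, opposite to the sensor gene. The IFN-γ difference was -0.45 log2, inside the middle 95% of all genes, which ran from -0.48 to 0.67.

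Il18 had log2 values of 9.52, 9.29, 8.45 and 8.54 in that order. Both arrays with GW were lower than both without it. Its IFN-γ difference was -0.24 log2, opposite in sign to that of Il1b although both precursors are caspase-1 substrates.

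Il1rn, the antagonist gene, had log2 values of 6.65, 6.91, 6.19 and 5.86. The last of these was close to the table median of 5.83, so its size is uncertain. With IFN-γ it was 1.2-fold higher, a difference of 0.26 log2, against 2.83 for Il1a and 1.92 for Il1b, the ligands it competes with.

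Il1r1, the signalling receptor gene, had log2 values of 8.43, 9.10, 8.57 and 8.43, and the IFN-γ array stood apart above the other 3. Its difference with IFN-γ was 0.67 log2, or 1.59-fold, with 2.51% of all genes higher. Il1rap, the accessory chain gene, had log2 values of 7.67, 7.96, 7.69 and 7.93, the smallest range of the 8 genes at 0.29 log2.

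**Figure D2:**
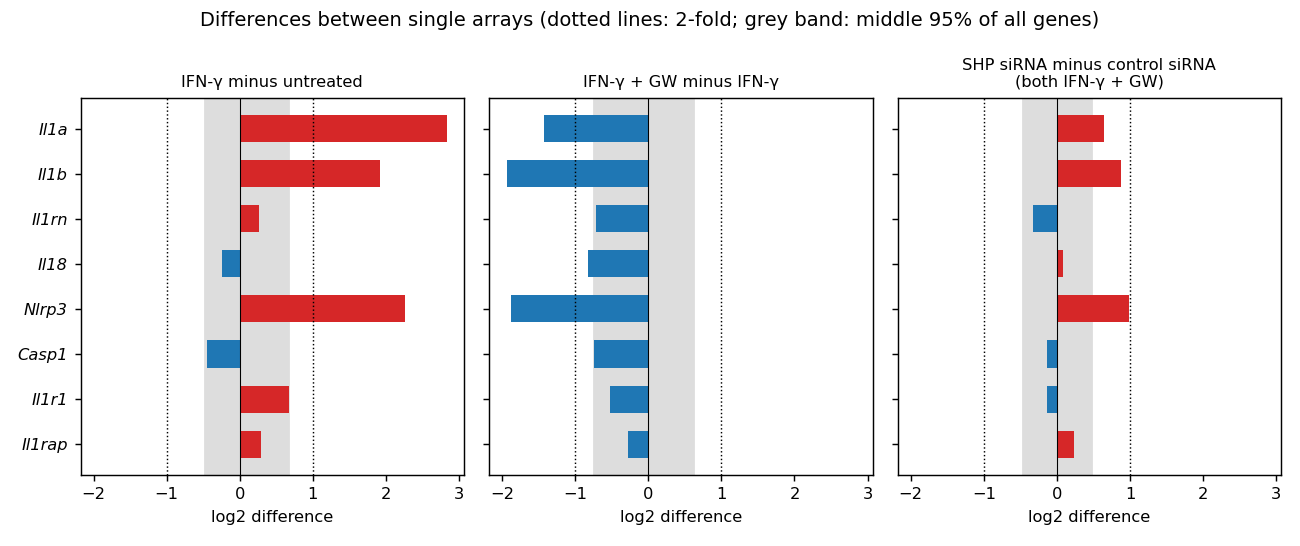
Log2 difference (horizontal axis) of the 8 genes in the 3 main comparisons between single arrays, with 2-fold as dotted lines and the middle 95% of all 11790 genes as a grey band. With IFN-γ, Il1a, Il1b and Nlrp3 lie beyond 2-fold, with GW all 8 lie below 0, and with SHP siRNA no gene reaches 2-fold and Nlrp3 is closest at 0.98.

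Around these genes, the other inflammasome components were nearly level with IFN-γ. Of 19 in the list, 17 were measured and 14 passed the filter. At 2-fold, 0 of the 14 were higher, against 1.61% of all genes, and 0 lower, against 0.288%. Their median was -0.05 log2. That sign turned to 0.06 after centring on reference genes. Pycard, the adaptor that links NLRP3 to caspase-1, was at -0.26, the sensor gene Nlrp1a at -0.49, Txnip at -0.42 and the kinase gene Nek7, whose product binds NLRP3, at -0.26.

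Genes of signalling downstream of the IL-1 receptor were higher in part. The filter left 17, with a median of 0.16 log2. Of these, 4 reached 2-fold upwards, against 1.61% of all genes, and 0 downwards, against 0.288%. The 4 were the ubiquitin ligase gene Peli1 (1.34), the kinase genes Map3k8 (1.18) and Irak2 (1.13), and Nfkb1 (1.08), which encodes an NF-κB subunit. The adaptor gene Myd88, at 9.40 untreated and 9.27 with IFN-γ, did not reach that size. These genes too were listed with earlier results of these data known. Whether IL-1 receptor signalling took part in their values was not tested.

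A list of 23 genes that respond to IL-1 in many cells, most of them also to other inflammatory stimuli, had 20 past the filter. With IFN-γ, 15 of the 20 reached 2-fold upwards, against 1.61% of all genes, and 0 downwards, against 0.288%. The median was 1.83 log2, beside -0.04 over all genes. This list was chosen with earlier results of these data known. The largest differences were those of the chemokine genes Cxcl2 (4.43) and Ccl20 (4.19), the cytokine gene Il6 (3.73) and the prostaglandin synthase gene Ptgs2 (2.68). Whether IL-1 protein took part was not tested.

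Among other members of the family, 2 of 7 further ligand and soluble inhibitor genes passed the filter. These were the alarmin gene Il33, at -0.36 log2 with IFN-γ, and Il18bp, which encodes a soluble IL-18 inhibitor, at -0.06. Il36a, Il36b, Il36g, Il36rn and Il1f10 did not pass. Of 8 further receptor genes, among them the decoy receptor gene Il1r2, the IL-33 receptor gene Il1rl1 and both IL-18 receptor genes, 0 passed, and their highest value on any array was below 5.83.

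Microglia markers were lower on the array where Il1a, Il1b and Nlrp3 were higher. Of the 17, 15 were below 0 with IFN-γ and 2 above, with a median of -0.36 log2, beside -0.04 over all genes. Cx3cr1, the fractalkine receptor gene, was at -1.23, Csf1r and Trem2 both at -0.64 and P2ry13 at 0.62. The summed linear signal of the 17 markers was 17920 untreated, 14140 with IFN-γ, 9837 with IFN-γ and GW, and 11050 with SHP siRNA, IFN-γ and GW. In bulk RNA, fewer cells of a type and less RNA per cell cannot be told apart.

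Against their untreated arrays on the linear scale, Il1a, Il1b and Nlrp3 stood at 710%, 378% and 478% with IFN-γ, while the summed microglia markers stood at 78.9%. Casp1 at 73.0% and Il18 at 84.9% lay on either side of that sum and within the range of the 17 single markers, from 42.7% to 154%. The part of microglia in these values was not tested.

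**Figure D3:**
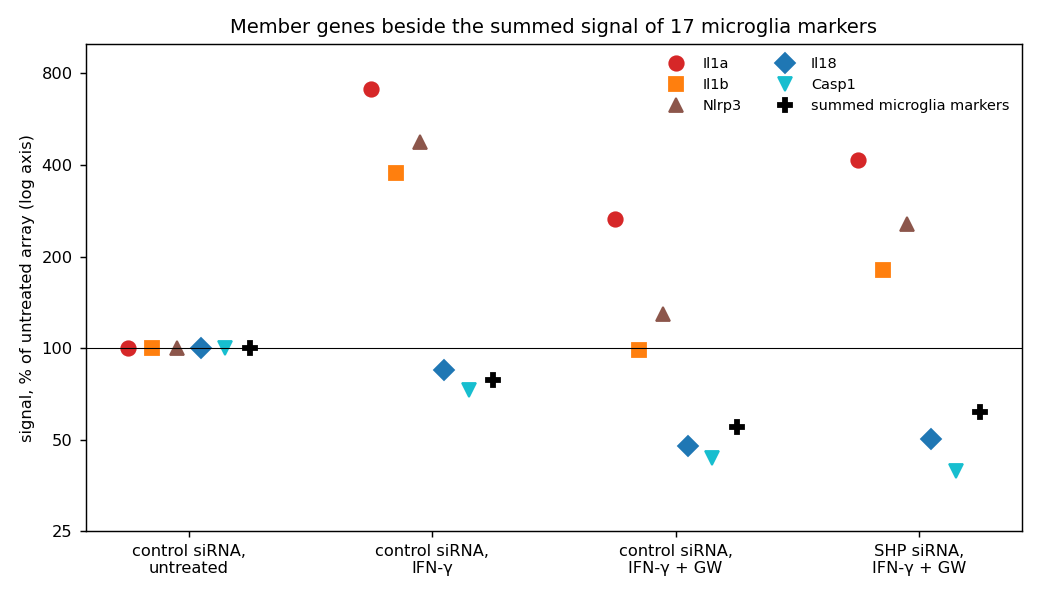
Linear signal as percent of the untreated array (vertical log axis) for 5 of the genes and for the sum of 17 microglia markers in the 4 arrays, 1 point each. Il1a, Il1b and Nlrp3 lie at 378% to 710% with IFN-γ, whereas Il18, Casp1 and the marker sum lie below 100% on the 3 treated arrays.

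The second comparison asks how the genes stood when GW was added to IFN-γ, both with control siRNA. All 8 genes were lower with GW, and Il1b, Nlrp3 and Il1a by most. At least 2-fold lower were 3 of 8, against 0.950% of all genes, and 0 of 8 were at least 2-fold higher, against 0.958%. The median difference of the 8 was -0.79 log2, beside -0.05 over all genes. After centring on reference genes the same count was 3 of 8, all genes divided into 178 higher and 61 lower in place of 113 and 112, and the median of the 8 was -0.57. This comparison shares the IFN-γ array with the first, so a high value there enters both with opposite signs.

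Il1b was 3.84-fold lower, a difference of -1.94 log2, and only 7 of the 11790 genes had a lower one. Nlrp3 was 3.67-fold lower at -1.88, with 9 genes lower. Il1a was 2.69-fold lower at -1.43, with 36 genes lower. With GW, the signal of Il1b was 26.1% and that of Nlrp3 27.2% of the IFN-γ array, against 37.2% for Il1a.

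The other 5 genes were lower by less than 2-fold. Il18 was at -0.83 log2 and Casp1 at -0.75, at or beyond the lower edge of the middle 95% of all genes, -0.75. Il1rn was at -0.72 and the receptor genes Il1r1 and Il1rap at -0.53 and -0.28. Ligand, antagonist and receptor genes were thus all on the lower side of 0, and the ligands Il1a and Il1b further from it than their antagonist.

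Set against the untreated culture instead, the genes divided. Of 8, 1 was at least 2-fold higher with IFN-γ and GW, Il1a at 1.40 log2, against 1.65% of all genes. Casp1 at -1.20 and Il18 at -1.07 were at least 2-fold lower, against 0.840%. Il1b at -0.02 was level with the untreated array, and Nlrp3 was at 0.38.

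Around them, 0 of 14 other inflammasome genes reached 2-fold with GW, against 0.958% of all genes upwards and 0.950% downwards. Their median was -0.20 log2, and 0.02 after centring on reference genes. Txnip was at -0.88, the non-canonical inflammasome protease gene Casp4 at -0.55, Brcc3, which encodes a deubiquitinase of NLRP3, at -0.45, and Nlrp1b at 0.45. Nlrp1b had log2 values of 5.55, 5.51, 5.96 and 5.47 and passed the filter through the array with control siRNA, IFN-γ and GW alone, so that array had to be its highest and the size of its differences is uncertain. Of 17 receptor signalling genes 0 reached 2-fold, against 0.958% of all genes upwards and 0.950% downwards. The median of the 17, -0.05, turned sign under all 4 other scalings. Peli1 was at -0.75, Irak2 at -0.69, Nfkb1 at -0.46 and Tab2 at 0.37. Il18bp was at -0.29 and Il33 at -0.27.

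Among the 20 IL-1-responsive genes, with a median of -0.41 log2, 4 reached 2-fold downwards, against 0.950% of all genes. Upwards there were 0, against 0.958%. The 4 lower genes were Nos2, the inducible nitric oxide synthase gene, at -1.58, and the colony-stimulating factor gene Csf2 at -1.34. With them were the chemokine gene Cxcl6 at -1.20 and the prostaglandin E synthase gene Ptges at -1.02. Of the 20, 14 were below 0 and 6 above, among them Il6 at 0.49 and Lif and Ptgs2 both at 0.93.

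**Figure D4:**
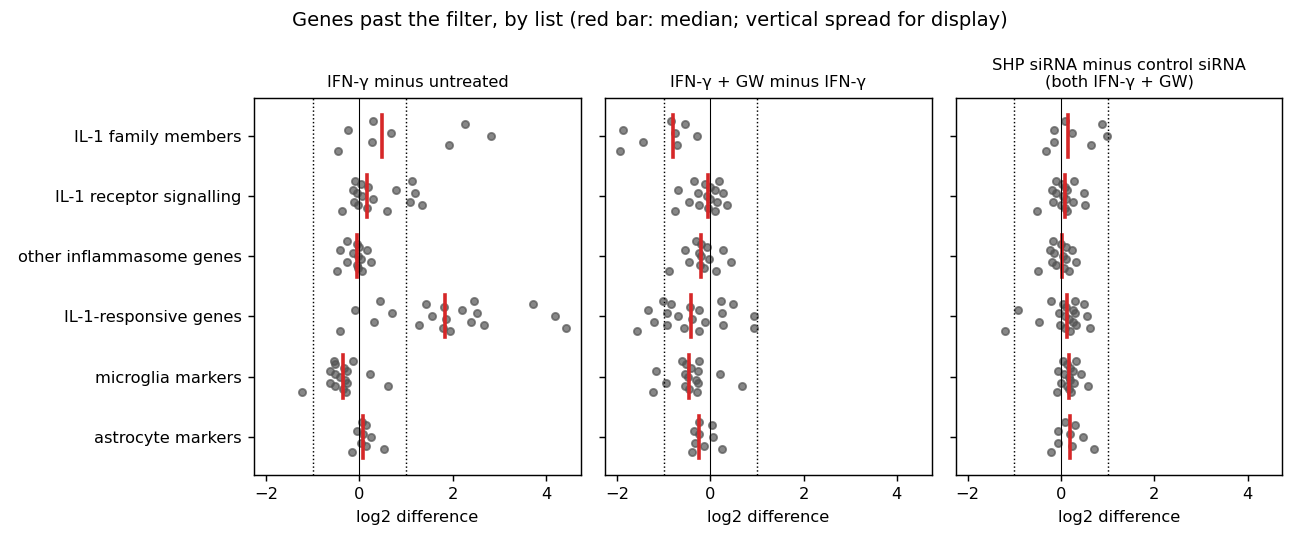
Log2 difference (horizontal axis) of every gene past the filter in 6 lists for the 3 main comparisons, 1 point per gene, with the list median in red and 2-fold as dotted lines. With IFN-γ the IL-1-responsive genes have a median of 1.83 and the other inflammasome genes -0.05, and with GW the members have a median of -0.79.

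Microglia markers were lower with GW too, beside the members. Of 17, 15 were below 0 and 2 at least 2-fold lower, against 0.950% of all genes. The markers had a median of -0.46 log2, beside -0.05 over all genes. The signalling adaptor gene Tyrobp was at -1.22, the leukocyte surface gene Ptprc at -1.16, Cd53 at -0.94 and Cx3cr1 at 0.68. Relative to the untreated culture the marker sum was 54.9%, Casp1 43.5%, Il18 47.7%, Il1b 98.5%, Nlrp3 130% and Il1a 265%, and the single markers ran from 34.1% to 125%. Their part in the members' values was not tested. Of 9 astrocyte markers past the filter, 6 were below 0, with a median of -0.23 and the glutamate transporter gene Slc1a3 at -0.38.

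The third comparison asks how the genes stood when SHP siRNA replaced control siRNA under IFN-γ and GW. Nlrp3, Il1b and Il1a were higher with SHP siRNA and the other 5 differed little. None reached 2-fold (0 of 8 higher, against 0.144% of all genes, and 0 of 8 lower, against 0.263%), and the median of the 8 was 0.16 log2, beside 0.01. This comparison shares the array with control siRNA, IFN-γ and GW with the second.

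Nlrp3 was at 0.98 log2, or 1.98-fold, just under the 2-fold line, and 20 of the 11790 genes were higher. Il1b was at 0.88, or 1.84-fold, with 34 genes higher, and Il1a at 0.65, or 1.57-fold, with 114 higher. These 3 were above the middle 95% of all genes, which ran from -0.46 to 0.48. Il1rap at 0.24, Il18 at 0.08, Il1r1 and Casp1 both at -0.14 and Il1rn at -0.33 were inside it.

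In the SHP siRNA culture the 3 genes stood between the other treated arrays. Il1a was at 58.5% of its signal with IFN-γ alone, Nlrp3 at 53.9% and Il1b at 47.9%. Against IFN-γ alone, Il1b at -1.06 log2 and Il1rn at -1.05 were at least 2-fold lower, 2 of 8 against 0.407% of all genes, and 0 of 8 were higher, against 0.450%. Against the untreated culture, Il1a at 2.06 and Nlrp3 at 1.36 were at least 2-fold higher, 2 of 8 against 1.59%, and Casp1 at -1.34 was lower, 1 of 8 against 0.882%. The SHP siRNA culture thus lay between the untreated and IFN-γ arrays for the first 2 of these genes and below both for Casp1.

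Other genes of the pathway differed by less than 2-fold with SHP siRNA. Of 17 receptor signalling genes 12 were above 0, with a median of 0.09 log2, Peli1 at 0.52, Nfkb1 at 0.50, Irak2 at 0.27 and Myd88 at -0.51. Of 14 other inflammasome genes 7 were above 0 and 7 below, with a median of 0.02, Nlrp1b at -0.49 (from the array that carried it past the filter to a value below 5.83), Txnip at 0.33, Nek7 at 0.24 and the channel gene Panx1 at -0.23. Il33 was at 0.34 and Il18bp at -0.14. Of 20 IL-1-responsive genes 0 reached 2-fold upwards, against 0.144% of all genes, with a median of 0.14. Downwards there was 1, against 0.263%, the cytokine gene Lif at -1.19. In that list Il6 was at -0.92, Nos2 at 0.63 and the adhesion gene Vcam1 at 0.56.

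Microglia markers were above 0 in 15 of 17 with SHP siRNA, with a median of 0.17 log2, Ptprc at 0.59, P2ry12 at 0.43, Cd53 at 0.33 and Trem2 at 0.27. Meningeal markers were above 0 in 6 of 7 past the filter, with a median of 0.49 and the growth factor receptor gene Pdgfra at 0.72. Astrocyte markers were above 0 in 6 of 9, with a median of 0.19 and Aqp4 at 0.71. The part of these cells in the values of Nlrp3, Il1b and Il1a was not tested.

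The genes whose profiles were most like those of the members were found by the Euclidean distance between the 4 log2 values after each gene's own mean was subtracted. The 4 arrays are few for such a ranking, so close profiles are a description. Nearest to Il1a were the niacin receptor gene Hcar2 at 0.13, Zfp46 at 0.30 and the hyaluronan synthase gene Has2 at 0.33. Nearest to Il1b were the C-type lectin gene Clec4d at 0.26, the feedback inhibitor gene Socs1 at 0.28 and the chemokine gene Cxcl11 at 0.29. Nearest to Nlrp3 were the C-type lectin gene Clec4e at 0.13, the transcription factor genes Msc at 0.16 and Spib at 0.21. Clec4d and Clec4e passed 5.83 with IFN-γ only, at 6.36 and 6.37, so that array had to be their highest. Spib was below 5.83 in the untreated culture and with control siRNA, IFN-γ and GW.

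Casp1, Il18 and Il1rn had other neighbours. Nearest to Casp1 were the lectin-like receptor gene Klra2 at 0.02, Ly86, which encodes a partner of the receptor CD180, at 0.11, and Pilrb2l5 at 0.19. Klra2 was below 5.83 on both arrays with GW, at 5.58 and 5.46. Nearest to Il18 were the ATP synthase subunit gene Atp5mc3 at 0.08 and the proteasome gene Psma2 and Tmem184c, both at 0.09. Nearest to Il1rn were the cysteine dioxygenase gene Cdo1 and the water channel gene Aqp5, both at 0.13, and C1qtnf1 at 0.16. Among the members themselves, Il1b and Nlrp3 were 0.38 apart and Casp1 and Il18 0.26 apart. Il1a was farther from both, 0.74 from Nlrp3 and 1.08 from Il1b. Casp1 and Nlrp3, which act in one inflammasome, were 2.22 apart.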

How the data were processed

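RNA of 4 cultures was labelled with biotin and hybridised to single-colour arrays, per the labels' protocols. The deposited table gives 1 value per probe and array. It was taken as log2 signal because its values run from 1.14 to 13.4. The sources used here do not give the authors' log base, background correction, probe summary or normalization, so folds rest on the log2 reading.

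Of 29489 probes, 18511 had 1 gene symbol, 575 several and 10403 none, and the last 2 kinds were not named. Symbols were updated by Entrez identifier from the RefSeq table of assembly GRCr8 (18394 matched). A gene with several probes was represented by the one of highest mean, which left 18166 genes. Genes whose highest value reached the table median, 5.83, passed the filter (11790).

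Comparisons are log2 differences of 2 single arrays, counted at 2-fold, with no test. For counts above or below 0, the share of all genes on that side was not counted. The median of all genes was -0.04, -0.05 and 0.01 in the 3 main comparisons. The 14 gene lists include markers of neurons, oligodendrocyte lineage, endothelium, lymphocytes and reference genes. In the 3 comparisons, in the order of the report, the list medians were 0.12, -0.09 and 0.00 for neurons and 0.04, -0.03 and 0.11 for oligodendrocyte lineage. They were 0.14, -0.38 and 0.44 for endothelium (2 genes), -0.14, 0.11 and 0.03 for lymphocytes (2 genes) and 0.00, -0.12 and -0.05 for reference genes. Meningeal markers had 0.06, -0.10 and 0.49, and astrocyte markers 0.08 with IFN-γ. The members and lists were chosen with earlier results of these data known.

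The genes named are the 8 members, up to 4 genes per list and comparison with the greatest size of difference, Nr0b2, Ifngr1, Ifngr2 and the 3 nearest profiles of each member with a range of at least 1 log2. Gfap, Gjb6, the levels of Sox9, Col3a1 and Stmn2, and Myd88, Il6, Lif and Ptgs2 in comparisons where they were not among the 4, were chosen after their values were seen. So were the level of Rbfox3 and the meningeal and neuron markers named as below 5.83. Provisional symbols, small RNAs and olfactory, taste and vomeronasal receptors were left out of the nearest profiles. Python 3.11.15, R 4.3.3 and limma 3.58.1 (quantile normalization and cyclic loess, as alternatives) were used, and the steps were tested on simulated data. A planned promoter motif is not reported here.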

Additional observations from a re-analysis of the deposited data

How the results depend on the processing

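No paired analysis was possible because each condition has 1 array and the labels give no replicate numbers. All 24 differences of the members in the 3 main comparisons kept their sign under quantile normalization, median centring, cyclic loess, centring on reference genes, the mean of a gene's probes, no filter and a filter on the mean. None moved by more than the robust spread of all genes. Under these 7 settings the 2-fold counts of members were those of the report. Nlrp3 with SHP siRNA ranged from 0.97 to 1.00 and stayed under 2-fold. At 1.5-fold, 6 members were lower with GW and 3 higher with SHP siRNA. All genes then numbered 356 higher and 187 lower with IFN-γ, 332 and 586 with GW, and 168 and 142 with SHP siRNA. At 3-fold they numbered 80 and 2, 50 and 26, and 1 and 4. Centring on reference genes gave 178 and 61 with GW, and no filter gave 27 and 48 with SHP siRNA, where more genes were counted. That centring moved the median of all genes with GW from -0.05 to 0.17 log2. List medians near 0 turned sign under some settings, and without the filter the endothelial medians were -0.02 with GW and 0.05 with SHP siRNA, in place of -0.38 and 0.44 over 2 genes. With 1 array per condition, the spread between cultures is unknown, and values near 5.83 or below may lie at the background of the arrays. A pseudocount for linear values was not needed.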
